A study of Rattus norvegicus with 24 samples.

Results

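The nuclear-encoded subunits of the respiratory chain were described in rat liver under diets that differed in copper and sucrose. Members were chosen by the gene name printed on the array, as every name beginning with Nduf, Uqcr, Cox4 to Cox8 or Atp5 and the 4 names Sdha to Sdhd. The names gave 112 of 30367 probes and 89 of 26278 gene names. By complex they were 43 names of complex I, 4 of complex II, 7 of complex III, 17 of complex IV and 18 of complex V. Of the 89 names, 87 had a probe well above background on at least 6 of 24 arrays, and 76 of these 87 were structural subunits or tissue forms of them (13 of complex IV and 63 of the other complexes). The other 11 were assembly factors, near copies, and names whose gene has since been placed elsewhere. Ndufaf2, an assembly factor of complex I, and Cox8c, the testis form of subunit VIII, were well above background on 0 of 24 arrays and were not tested. The mature subunits Cox6b1, Uqcr10 and Cyc1 carry other names on this array or lie outside the naming rule, so they are not members.

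The respiratory chain of the inner mitochondrial membrane passes electrons from NADH and succinate through complexes I and II to ubiquinone, and on through complex III and cytochrome c to oxygen at complex IV. Complex V, the ATP synthase, uses the proton gradient built by complexes I, III and IV. Complex IV, cytochrome c oxidase, is the copper enzyme of the chain: its copper centres sit in subunits encoded by mitochondrial DNA, and nuclear genes encode the surrounding subunits, some with a liver form and a heart and muscle form. Loss of complex IV activity is a long-known sign of copper deficiency in rodents, which sets the question of whether its nuclear-encoded subunits changed in RNA level apart from those of the other complexes.

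Liver RNA of 24 male Wistar rats was hybridised to one-colour Agilent arrays, each rat to its own array. Feeding began at an age of 6 months and lasted 12 weeks, with 6 rats on each of 4 purified diets. They are written as low Cu/30% sucrose (copper under 0.3 mg/kg), adequate Cu/30% sucrose (copper 125 mg/kg), low Cu/10% sucrose, and the control diet, which had adequate copper and 10% sucrose. Carbohydrate was evened out by starch and dextrin, and the work models fatty liver disease of dietary origin. Levels are log2 signal over the array's 75th percentile, so that 0 is that percentile, and differences are on the log2 scale, each with its standard error (SE) from a limma fit over 18641 genes. A gene was called where the Benjamini-Hochberg adjusted p over all genes was under 0.05.

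On each array, 59.9 to 73.4% of probes exceeded background well. The 75th percentile of the signal was 433 to 1284, where the local background was 38 to 48. The members were among the brighter and steadier genes: the median within-diet SD was 0.177 for members, against 0.226 for other genes with a mean level of 2 or more and 0.318 for all genes. All 8 hepatocyte markers passed the filter. In bulk liver, fewer cells of a type and less RNA per cell cannot be told apart. The diets were spread unevenly over 3 slides of 8 arrays. All 6 low Cu/30% sucrose rats were on slide 1 with 2 adequate Cu/30% sucrose rats. Slide 2 carried 4 adequate Cu/30% sucrose and 4 low Cu/10% sucrose rats, and slide 3 carried 2 low Cu/10% sucrose rats beside all 6 controls. With slide as a block in the fit, 0 of 87 members were called in any of the 8 comparisons, and over all genes between 0 and 20 were called. Every call given next therefore comes from the fit without that block.

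The promoters of the subunits were read from RefSeq (build GRCr8, 250 bases before to 50 after the gene start), where 68 of 77 subunit names matched. Each subunit was given the first promoter listed for its name, while the comparison set was every listed promoter, with no selection for genes expressed in liver. Cores bound by 3 factors known to act on nuclear genes of the respiratory chain were searched on both strands. The NRF-1 core GCATGCGC lay in 9 of 68 subunit promoters (13.2%), against 2.47% of all 33469 promoters. The GABP (NRF-2) core CCGGAAG lay in 20 (29.4%), against 8.75%. The YY1 core AAGATGGCG lay in 10 (14.7%), against 1.73%. At least 1 of the 3 was found in 45.6% of subunit promoters, against 12% of all promoters, and in the subunit promoters no match of one core overlapped a match of another. Among complex IV promoters 5 of 11 (45.5%) held a core, against 26 of 57 (45.6%) in the other complexes. By core they were 1 of 11 against 8 of 57 for NRF-1, 4 against 16 for GABP and 0 against 10 for YY1. The promoters of 3 members are shown, with the cores in capitals. Cox4i1 (chr19:65630133-65630432, plus strand), the liver form of the largest nuclear-encoded subunit of complex IV, held 2 GABP cores close to the gene start. Ndufa6 (chr7:115750268-115750567, minus strand), an accessory subunit of complex I, held all 3 kinds. Cox8b (chr1:205408224-205408523, minus strand), the heart and muscle form of subunit VIII in rodents, is shown because its level differed most clearly between diets, and none of the 3 cores occurred in this window.
Cox4i1: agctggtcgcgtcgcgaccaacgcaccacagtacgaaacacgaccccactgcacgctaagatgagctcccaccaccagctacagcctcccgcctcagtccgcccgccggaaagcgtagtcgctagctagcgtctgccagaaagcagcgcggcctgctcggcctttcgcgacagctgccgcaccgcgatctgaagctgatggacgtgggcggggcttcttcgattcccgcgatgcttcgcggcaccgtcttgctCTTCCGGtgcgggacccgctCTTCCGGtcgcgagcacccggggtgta
Ndufa6: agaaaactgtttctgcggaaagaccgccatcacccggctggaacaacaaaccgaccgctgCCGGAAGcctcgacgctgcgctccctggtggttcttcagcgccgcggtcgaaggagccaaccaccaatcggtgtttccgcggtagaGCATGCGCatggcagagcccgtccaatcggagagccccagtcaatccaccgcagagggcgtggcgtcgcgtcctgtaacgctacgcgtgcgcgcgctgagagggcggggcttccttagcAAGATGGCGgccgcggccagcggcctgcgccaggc
Cox8b: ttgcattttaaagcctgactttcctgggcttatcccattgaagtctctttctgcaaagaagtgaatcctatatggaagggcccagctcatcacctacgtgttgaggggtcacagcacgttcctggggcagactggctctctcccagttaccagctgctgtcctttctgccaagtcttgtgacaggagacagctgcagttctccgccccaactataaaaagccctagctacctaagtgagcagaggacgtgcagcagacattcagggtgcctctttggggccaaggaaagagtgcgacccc

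Averaged over both sucrose levels, low copper left the RNA levels of the complex IV subunits close to those under adequate copper. The median of the 13 complex IV subunits was 0.03, with 10 above 0 and a range of -0.06 to 0.32. The median of the 63 subunits of complexes I, II, III and V was 0.01 (36 above 0), and that of all genes was 0.03. By complex the median was 0.01 for complex I, 0.04 for complex II, 0.05 for complex III and 0.01 for complex V. No member was called (limma), as was no gene of all 18641 (0%), and 0 of 87 had an unadjusted p under 0.05, where 1640 of all 18641 genes did. All 87 of the 95% intervals included 0, and reached a median of 0.16 to either side of the estimate, so differences of that size could have gone unseen.

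Cox4i1 (rn4 chr19:51030141-51030200), on which the stability of the holoenzyme depends, had levels of 6.64, 6.87 and 7.25 (lowest, median, highest) on low Cu/30% sucrose and 6.76, 6.92 and 7.42 on adequate Cu/30% sucrose. It had 6.73, 7.03 and 7.45 on low Cu/10% sucrose and 6.51, 6.90 and 7.19 on the control diet. The 4 diets overlapped almost fully. Its mean copper difference was 0.05 (95% interval -0.17 to 0.26). The subunits Cox5a and Cox5b, which lie on the matrix side of the enzyme, differed by 0.03 (-0.11 to 0.18) and 0.04 (-0.18 to 0.26). The liver forms Cox6a1, Cox7a2 and Cox8a differed by 0.01 (-0.13 to 0.15), -0.01 (-0.15 to 0.14) and 0.03 (-0.16 to 0.22). Cox6c, Cox7b and Cox7c, small membrane-spanning subunits, differed by 0.05 (-0.08 to 0.18), 0.03 (-0.12 to 0.19) and -0.06 (-0.26 to 0.15). None of these 9 liver subunits had an estimate beyond 0.06 in either direction. Among the tissue forms, the lung form Cox4i2 differed by 0.05 (-0.13 to 0.24), the testis form Cox6b2 by -0.01 (-0.34 to 0.31), and the heart and muscle form Cox6a2 by 0.27 (-0.11 to 0.65). Cox8b had the largest estimate, 0.32 (-0.0011 to 0.65, adjusted p = 0.57). Cox6b1, the liver form of subunit VIb that lies outside the naming rule, differed by -0.03.

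Core subunits of the other complexes gave values of the same small size. In complex I, Ndufv1 (which binds NADH) differed by 0.0034 and Ndufs1 (an iron-sulphur subunit) by 0.12 (-0.03 to 0.27). Accessory subunits Ndufa9 and Ndufb8 differed by 0.08 and 0.07. In complex II the flavoprotein Sdha differed by 0.07, the iron-sulphur protein Sdhb by 0.05, and the membrane anchors Sdhc and Sdhd by -0.03 and 0.03. In complex III the core proteins Uqcrc1 and Uqcrc2 differed by -0.03 and 0.08, the Rieske protein Uqcrfs1 by 0.05 and Uqcrb by -0.03. In the ATP synthase the alpha and beta chains Atp5a1 (now Atp5f1a) and Atp5b (now Atp5f1b) differed by 0.03 and -0.01, the gamma chain Atp5c1 (now Atp5f1c) by 0.02, the delta chain Atp5d (now Atp5f1d) by -0.01 and Atp5o (now Atp5po) by 0.01. The 5 members with the smallest p were Cox8b, Uqcrq, Ndufs1, Cox7a2l (a supercomplex factor, -0.11) and the complex I assembly factor Ndufaf1 (0.10). The interval of Atp5b was wide (-0.35 to 0.34).

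**Figure D1:**
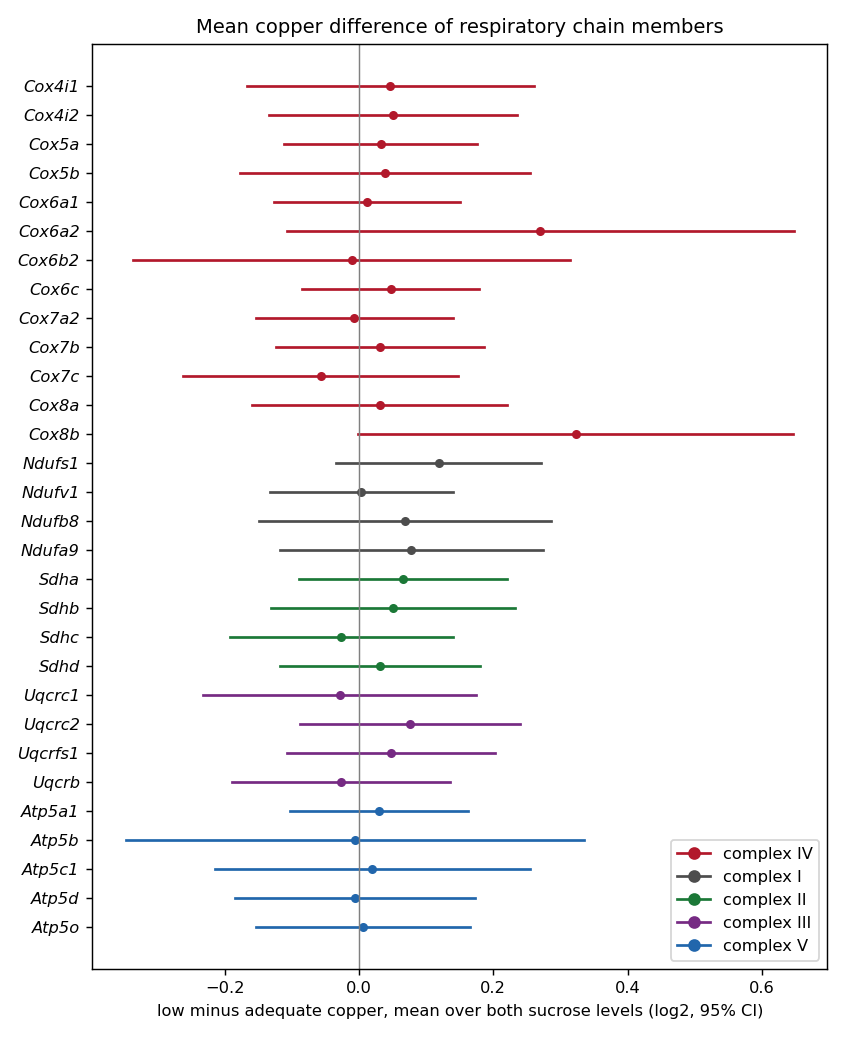
Mean copper difference (low minus adequate copper, averaged over both sucrose levels, log2) of the named members, grouped by complex, with points for estimates and bars for 95% intervals of the limma fit over 24 rats. Every bar includes 0, and the complex IV subunits lie among the others except for the wide bars of Cox8b and Cox6a2.

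Averaging could hide a difference that depends on sucrose, so the copper difference was compared between the sucrose levels, as copper at 30% sucrose minus copper at 10% sucrose. Here the medians of the complexes differed more. The median over complexes I, II, III and V was 0.21, with 56 of 63 subunits above 0, while over the 13 complex IV subunits it was -0.01, with 6 above 0. The same medians with slide as a block were 0.0088 (34 of 63 above 0) and -0.30 (3 of 13 above 0), so the shift of the other complexes above 0 was not seen there. All genes had a median of -0.10, and other genes with a mean level of 2 or more had 0.04. With slide as a block these were -0.13 and -0.12. Complex II had the highest median, 0.36, followed by complex I at 0.20 and complexes III and V at 0.17 each. The median of complex IV minus that of the others was -0.22. Without Cox4i2, Cox6a2, Cox6b2 and Cox8b the median of the remaining 9 complex IV subunits was 0.18, and the gap was -0.03. In single genes 6 members passed above 0 and 3 below (6.9 and 3.45% of 87), against 1.94 and 18.9% of all genes tested. With quantile normalization 2 members passed each way (2.3%), against 4.25% of all genes above 0 and 9.54% below. That scaling moved the median of all genes from -0.10 to 0.00, and that of genes with a mean level under -2 from -0.58 to -0.08. For complex IV it gave 0.02 and for the other complexes 0.17.

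The simple differences behind that contrast share groups and are given side by side. At 30% sucrose, low minus adequate copper had a median of 0.03 over complex IV and 0.11 over the other complexes (53 of 63 above 0), beside -0.04 over all genes. At 10% sucrose it was 0.05 over complex IV and -0.09 over the others (55 of 63 below 0), beside 0.05 over all genes. For 30% minus 10% sucrose, complex IV had -0.02 and the others -0.13 at adequate copper (54 of 63 below 0), beside 0.07 over all genes. At low copper, complex IV had -0.03 and the others 0.07 for the same sucrose change. Low Cu/30% sucrose against the control diet gave 0.01 for complex IV and -0.02 for the others. In the fit without the slide block, subunits of complexes I, II, III and V thus had lower medians in both single-change diets than in the control diet and nearly the control value under both changes at once. This order did not hold with slide as a block. The other complexes then had -0.30 for low Cu/30% sucrose against the control diet (2 of 63 above 0). They had -0.07 for low copper at 10% sucrose and -0.20 for 30% sucrose at adequate copper. Other genes with a mean level of 2 or more had -0.23 (645 of 3168 above 0), -0.01 and -0.08 in the same order. For copper at 30% sucrose both medians turned with the block, to -0.13 for complex IV (2 of 13 above 0) and -0.07 for the others (15 of 63 above 0). Sucrose at low copper also turned for the others, to -0.24. With the block, other genes with a mean level of 2 or more had -0.13 for copper at 30% sucrose and -0.21 for sucrose at low copper. Most single subunits behind these medians did not pass the test.

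**Figure D2:**
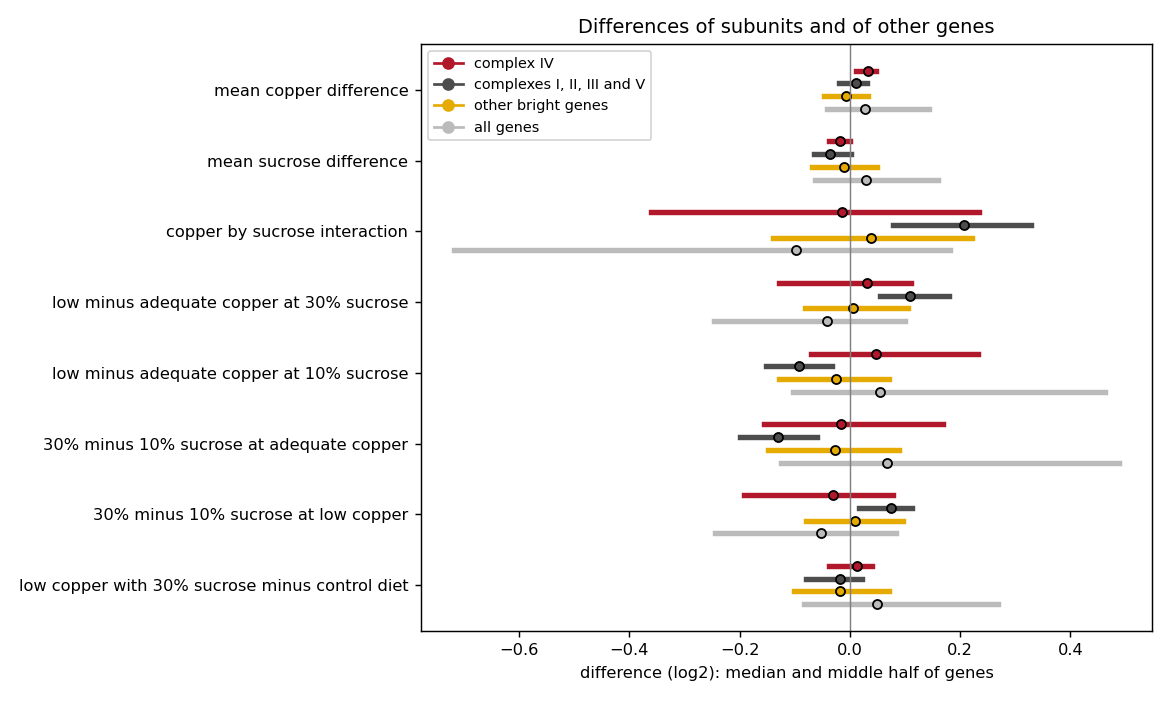
Differences (log2) in the 8 comparisons for complex IV subunits, subunits of the other complexes, other genes with a mean level of 2 or more (other bright genes) and all genes, with the median as a point and the range between the quartiles as a bar. In the copper by sucrose interaction the other complexes have a median of 0.21 and complex IV -0.01, while in the mean copper difference all 4 medians lie between -0.01 and 0.03.

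Each rat was also summarised by the median deviation of its subunits from their 24-rat means. For complex IV the deviation was 0.00 ± 0.16 on low Cu/30% sucrose, -0.03 ± 0.18 on adequate Cu/30% sucrose, 0.03 ± 0.17 on low Cu/10% sucrose and -0.02 ± 0.14 on the control diet (SD, n = 6 each). For the other complexes it was 0.04 ± 0.08, -0.07 ± 0.16, -0.03 ± 0.13 and 0.05 ± 0.12 in the same order of diets. The diets overlapped in both, and the differences between diet means were smaller than the SD of at least 1 of the diets compared. Taken within each rat, complex IV minus the others was -0.04 ± 0.13 on low Cu/30% sucrose, 0.05 ± 0.06 on adequate Cu/30% sucrose, 0.06 ± 0.08 on low Cu/10% sucrose and -0.07 ± 0.05 on the control diet. Under quantile normalization these means were -0.02, 0.05, 0.03 and -0.05.

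**Figure D3:**
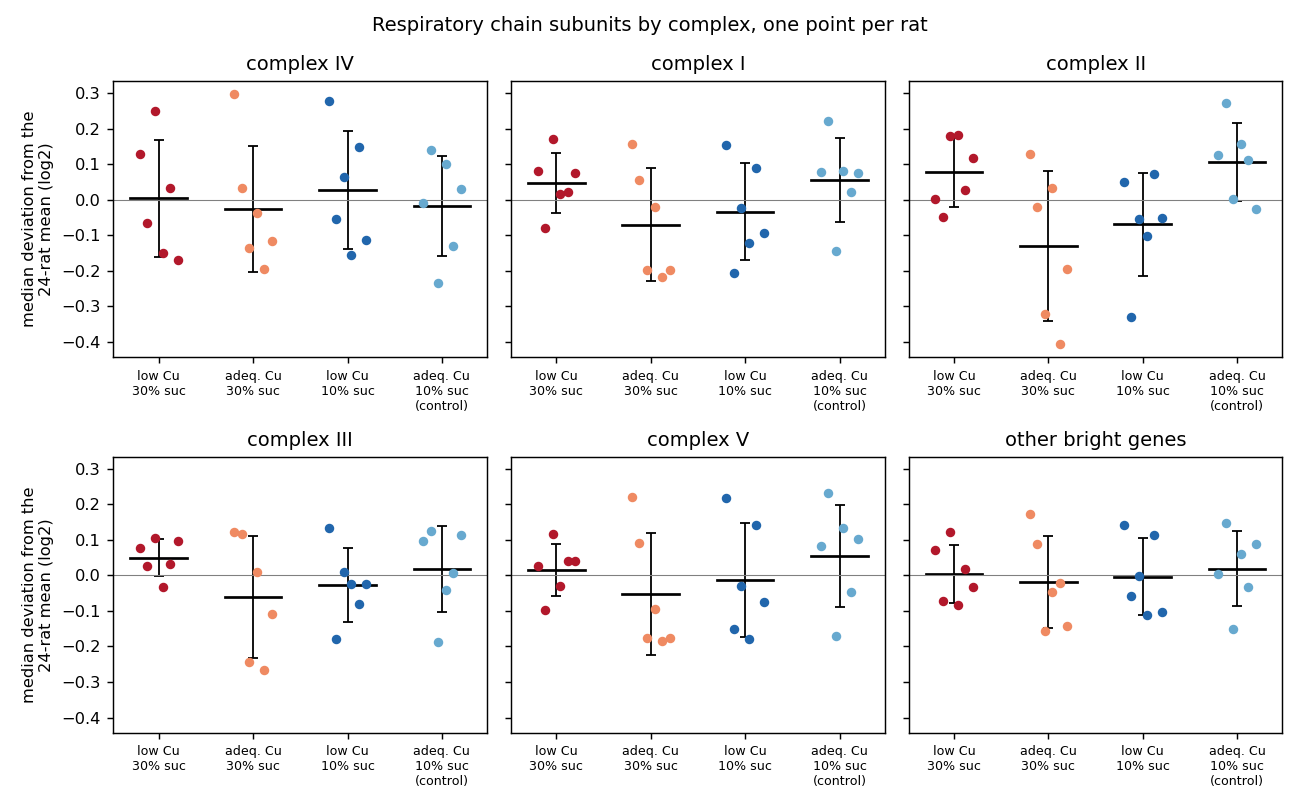
Median deviation of each complex's subunits from their 24-rat means (log2), with 1 point per rat, the 4 diets on the horizontal axis, and the mean and SD of each diet as lines. Within every complex the diets overlap, and complex II has the lowest single rat, at -0.41 on adequate Cu/30% sucrose.

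Part of the rat-to-rat spread was shared with genes outside the respiratory chain. With the 75th percentile as scale, rats with low subunit medians also had low medians of other bright genes, and under quantile normalization that shared spread shrank. Rat 5 on adequate Cu/30% sucrose stayed lowest under both scalings, at -0.22 and -0.24 over all subunits. In that rat complex I stood at -0.22, complex II at -0.41, complex III at -0.27, complex IV at -0.19 and complex V at -0.18. Rat 2 on low Cu/10% sucrose was the next lowest under quantile normalization, at -0.11. The same 2 rats had high neutrophil markers, with a median deviation of 2.16 and 1.77 over the 5 markers. Their macrophage markers were also the highest of the 24 rats, at 1.03 and 1.72 over 6 markers, and T, B and NK cell markers stood at 0.65 and 1.03. The part of those cells in the subunit levels was not tested.

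**Figure D4:**
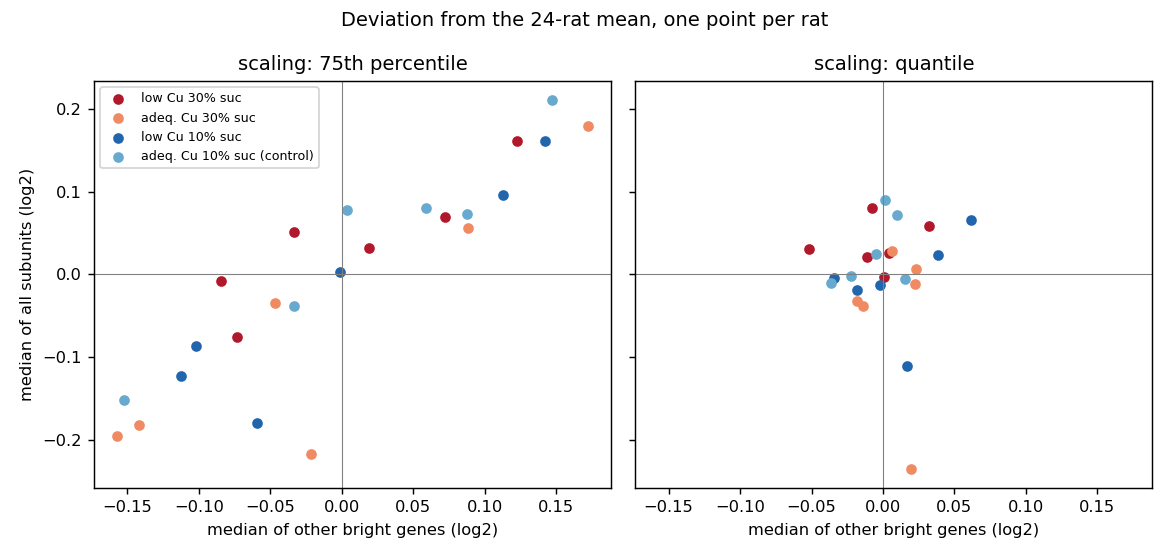
Median deviation of all subunits (vertical) against that of other bright genes (horizontal), both in log2 with 1 point per rat and colours for the 4 diets, under 75th percentile scaling (left) and quantile normalization (right). Under the percentile both medians spread along a diagonal, and under quantile normalization the points gather near 0 except rat 5 on adequate Cu/30% sucrose at -0.24 and rat 2 on low Cu/10% sucrose at -0.11.

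Low and adequate copper shared a slide at 1 sucrose level on slides 1 and 3, where a slide difference cannot enter. On slide 1, with 6 rats on low copper and 2 on adequate copper at 30% sucrose, the median difference was -0.13 for complex IV (2 of 13 above 0) and -0.07 for the other complexes, beside -0.09 for all genes. Under quantile normalization these were -0.07, 0.04 and -0.01, and complex IV without its tissue forms had 0.05, so that directions on this slide turned with the scaling. On slide 3, with 2 rats on low copper and 6 control rats at 10% sucrose, it was 0.03 for complex IV (8 of 13 above 0) and -0.07 for the others (13 of 63 above 0), beside 0.04 for all genes. With 2 rats on one side, each of these values rests on few animals. For the copper differences at 30% and at 10% sucrose, the fit with slide as a fixed block gives these same values. So does leaving out slide 2, and neither is a separate check. The mean copper difference with slide as a block had a median of -0.07 for complex IV and -0.09 for the others. Other genes with a mean level of 2 or more had -0.08 there.

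Cox8b (rn4 chr1:201057325-201057384) replaces the liver form Cox8a in heart and skeletal muscle of rodents. Its levels were -3.71, -2.39 and -1.97 on low Cu/30% sucrose, -2.75, -2.44 and -2.09 on adequate Cu/30% sucrose, -2.82, -2.31 and -1.91 on low Cu/10% sucrose, and -3.44, -3.14 and -3.05 on the control diet. The control diet had the lowest median, while the rats on low Cu/30% sucrose spread across the whole range. At 10% sucrose Cox8b was higher under low copper by 0.85 (SE 0.22, adjusted p = 0.0084), in 6 of 6 rats. At adequate copper it was higher under 30% sucrose by 0.78 (SE 0.22, adjusted p = 0.015), also in 6 of 6. The interaction was -1.06 (SE 0.31, adjusted p = 0.0192). These calls stayed past the threshold with any 1 rat left out. With slide as a random block the difference at 10% sucrose was 0.79 (adjusted p = 0.0335), and as a fixed block 0.55 (adjusted p = 0.821). The other 2 calls were lost with the random block, at 0.70 for sucrose (adjusted p = 0.0937) and -0.95 for the interaction (adjusted p = 0.0831). They were also lost with quantile normalization, at 0.58 (adjusted p = 0.0568) and -0.78 (adjusted p = 0.071), where the copper difference was 0.65 (adjusted p = 0.0408). The fixed block value of 0.55 is the difference within slide 3 alone, between 2 rats on low copper and 6 control rats. Cox8b was dim, with a mean level of -2.64. Other genes with a mean level under -2 had a median of 0.36 for low copper at 10% sucrose and 0.38 for 30% sucrose at adequate copper.

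Cox6a2 (rn4 chr1:187464580-187464639), the heart and muscle form of subunit VIa, had a like order. Its levels were -4.81, -4.40 and -4.23 on low Cu/30% sucrose, -4.50, -4.29 and -3.79 on adequate Cu/30% sucrose, -4.99, -3.92 and -3.46 on low Cu/10% sucrose, and -5.65, -4.74 and -4.44 on the control diet. The diets overlapped, and 1 control array was not well above background. It was higher by 0.80 under low copper at 10% sucrose (SE 0.26, adjusted p = 0.0311) and by 0.76 under 30% sucrose at adequate copper (SE 0.26, adjusted p = 0.0396), with an interaction of -1.06 (SE 0.37, adjusted p = 0.0411). With the slide block both simple differences changed sign, to -0.04 and -0.55. Under quantile normalization they were 0.38 and 0.33 (adjusted p = 0.221 and 0.263). Single rats also ended these calls: the highest adjusted p was 0.0903 without rat 4 on low Cu/10% sucrose for copper, 0.0986 without rat 4 on the control diet for sucrose, and 0.076 without rat 6 on low Cu/30% sucrose for the interaction (limma). Genes this dim shifted together: the median of the 8628 other genes with a mean level under -2 was 0.36 for low copper at 10% sucrose and 0.38 for 30% sucrose at adequate copper.

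Markers of striated muscle were read beside these muscle forms. Of 6 markers, Ckm, Mb and Tnnt2 were well above background on all 24 arrays, while Acta1, Tnni3 and Myh7 were well above background on 1, 3 and 0 arrays. The median deviation of the 3 measured markers ranged from -0.36 to 0.34 on low Cu/30% sucrose, -0.22 to 0.67 on adequate Cu/30% sucrose, -0.16 to 0.57 on low Cu/10% sucrose and -0.59 to -0.06 on the control diet. The control range was the lowest of the 4 and overlapped the others. One of the 3 was called in each of the same 3 comparisons, and in the same direction. In those directions 18% of all genes were called for low copper at 10% sucrose, 18.4% for 30% sucrose at adequate copper and 18.9% in the interaction. The part of muscle cells in the 2 members was not tested.

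Uqcrq (rn4 chr10:38889265-38889324), a small subunit of complex III, moved in the same direction as the muscle forms. Its levels were -0.66, -0.22 and -0.07 on low Cu/30% sucrose, -0.27, -0.14 and -0.05 on adequate Cu/30% sucrose, -0.66, -0.00023 and 0.53 on low Cu/10% sucrose, and -1.03, -0.58 and -0.31 on the control diet. The control diet had the lowest median. It was higher by 0.59 under low copper at 10% sucrose (SE 0.17, adjusted p = 0.0136, above the control mean in 5 of 6 rats), and the interaction was -0.77 (SE 0.23, adjusted p = 0.022). Under 30% sucrose at adequate copper it differed by 0.46 and missed the threshold (adjusted p = 0.0501). Both calls held with any 1 rat left out and under quantile normalization (0.58 and -0.76). With slide as a block they were 0.16 and -0.34 and were not called. The 0.16 is the difference within slide 3 alone, between 2 low copper rats and 6 control rats.

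Another 5 members had positive interactions and their lower medians in the 2 single-change diets. Sdhc (rn4 chr13:87014610-87014669), a membrane anchor of complex II, had 3.05, 3.25 and 3.48 on low Cu/30% sucrose, 2.73, 3.05 and 3.22 on adequate Cu/30% sucrose, 2.80, 3.05 and 3.14 on low Cu/10% sucrose, and 2.90, 3.32 and 3.52 on the control diet. The diets overlapped, with the single-change diets at the lower end. Its copper difference was 0.23 at 30% sucrose and -0.28 at 10% sucrose, neither called, and the interaction was 0.51 (SE 0.16, adjusted p = 0.0269). The other 3 subunits of complex II had interactions of 0.37 (Sdha), 0.26 (Sdhb) and 0.34 (Sdhd), not called. Cox5a (rn4 chr8:61276321-61276380) had 4.97, 5.06 and 5.22 on low Cu/30% sucrose, 4.46, 4.91 and 4.97 on adequate Cu/30% sucrose, 4.82, 4.96 and 5.03 on low Cu/10% sucrose, and 4.93, 5.08 and 5.37 on the control diet. Low Cu/30% sucrose lay 0.24 above adequate Cu/30% sucrose, a difference that was not called (adjusted p = 0.476, limma). Cox5a fell by 0.28 under 30% sucrose at adequate copper (SE 0.10, adjusted p = 0.0468), with an interaction of 0.42 (adjusted p = 0.0356). The sucrose call had an adjusted p of 0.139 without rat 5 on adequate Cu/30% sucrose (limma).

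Ndufa4 (rn4 chr4:37126182-37126241), named for complex I and later assigned to complex IV in human work, had an interaction of 0.41 (adjusted p = 0.039). Its median levels were 5.46, 5.32, 5.31 and 5.49 in the order of the diets given for Cox5a. Atp5j (rn4 chr11:24316778-24316837, now Atp5pf), coupling factor 6 of the ATP synthase stalk, had an interaction of 0.41 (adjusted p = 0.0324), with medians of 4.37, 4.20, 4.25 and 4.49. Neither was called in a simple difference. Atp5s (rn4 chr6:91798434-91798493, now Dmac2l), no structural subunit, had medians of -1.78, -1.90, -1.85 and -1.47. It fell by 0.32 under low copper at 10% sucrose (adjusted p = 0.0401) and by 0.34 under 30% sucrose at adequate copper (adjusted p = 0.0275), and its interaction was 0.46 (adjusted p = 0.0331). It passed under quantile normalization in all 3, and missed the threshold with slide as a block, where the interaction was 0.59 (adjusted p = 0.271). Single rats also ended the simple calls of Atp5s, with an adjusted p of up to 0.0909 (without rat 4 on the control diet) for copper and 0.0756 (without rat 1 on adequate Cu/30% sucrose) for sucrose (limma). Under quantile normalization Sdhc, Cox5a, Ndufa4 and Atp5j lost their interaction calls (adjusted p = 0.0667, 0.0949, 0.105 and 0.0994, limma). The sucrose call of Cox5a was lost there as well (adjusted p = 0.0978, limma). Each of Sdhc, Cox5a, Ndufa4, Atp5j and Atp5s lost its interaction call when single rats were left out, in 3 to 11 of 24 cases. The highest adjusted p was 0.0526 for Sdhc without rat 5 on adequate Cu/30% sucrose, 0.0654 for Cox5a without rat 2 on the control diet, 0.077 for Ndufa4 and 0.0656 for Atp5s, both without rat 6 on low Cu/30% sucrose, and 0.0614 for Atp5j without rat 5 on adequate Cu/30% sucrose (limma). Atp5b, the catalytic beta chain, differed by -0.65 under 30% sucrose at adequate copper and missed the threshold (adjusted p = 0.0511, limma).

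Cox6c-ps1, a transcribed pseudogene of Cox6c, gave the largest differences among the members. Its 2 probes and that of Cox6c (positions on rn4, minus strand) are shown because a gene and its near copy can share signal. The pseudogene probes overlap, and capitals mark the 34 bases that they share. The first was well above background on 4 of 24 arrays and was not used, the second on all 24. The Cox6c probe shares no run longer than 9 bases with either, but at best 41 of its 60 bases match the first and 40 the second. Cox6c was much brighter, with a mean level of 5.72 against -1.95 for the second pseudogene probe. Signal of Cox6c RNA on the pseudogene probe was not tested.
Cox6c-ps1 (chr19:54398113-54398172): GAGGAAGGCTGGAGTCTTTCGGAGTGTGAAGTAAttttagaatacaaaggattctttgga
Cox6c-ps1 (chr19:54398139-54398198): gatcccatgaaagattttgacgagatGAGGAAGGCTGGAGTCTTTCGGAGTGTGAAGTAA
Cox6c (chr7:71474381-71474440): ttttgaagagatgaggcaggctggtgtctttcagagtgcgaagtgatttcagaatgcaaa

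The pseudogene's levels were -2.55, -1.56 and -1.39 on low Cu/30% sucrose, -3.98, -2.46 and -1.74 on adequate Cu/30% sucrose, -3.84, -1.92 and -1.25 on low Cu/10% sucrose, and -1.78, -1.41 and -0.93 on the control diet. A single rat lay far below the rest in 3 of the diets. It was lower by 1.20 under 30% sucrose at adequate copper (SE 0.35, adjusted p = 0.0173), a level 0.435 times that of the control diet, in 6 of 6 rats. The interaction was 1.60 (SE 0.50, adjusted p = 0.0238). The sucrose difference missed the threshold without rat 5 on adequate Cu/30% sucrose (adjusted p = 0.0532, limma). Without the 2 rats with high neutrophil markers these were -0.92 (adjusted p = 0.0076) and 0.98 (adjusted p = 0.0324), and with the slide block -0.73 and 0.44, not called. Cox6c itself, at medians of 5.81, 5.59, 5.75 and 5.83, was called in none of the 8 comparisons.

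**Figure D5:**
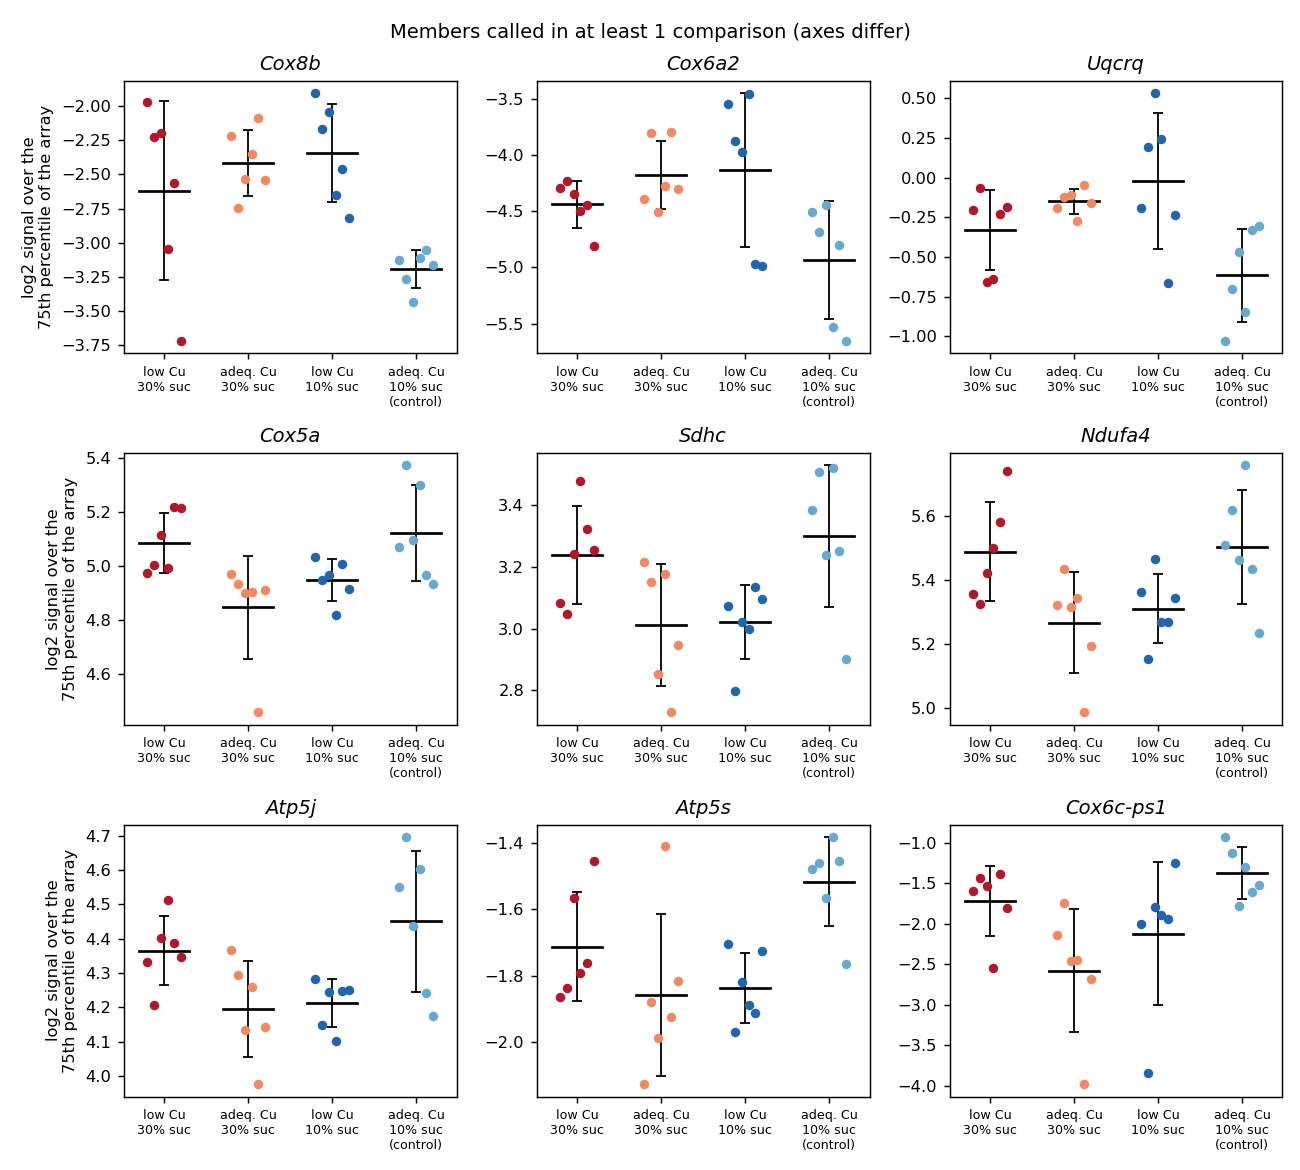
Levels (log2 signal relative to the array's 75th percentile) of 9 members called in at least 1 comparison, with 1 point per rat, the 4 diets on the horizontal axis, and the mean and SD of each diet as lines. For Cox8b the control rats lie between -3.44 and -3.05, with the lowest median of the 4 diets. For Cox5a, Sdhc, Ndufa4 and Atp5j the single-change diets have the lower means.

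How the members' counts stood to the background depended on the genes they were set beside. At 10% sucrose 3 of 87 members were higher under low copper and 1 lower (3.45 and 1.15%), against 18 and 0.595% of all genes and 0.347 and 0.884% of other genes with a mean level of 2 or more. At adequate copper 2 were higher and 4 lower under 30% sucrose (2.3 and 4.6%), against 18.4 and 2.48% of all genes and 1.07 and 3.88% of those other bright genes. In the interaction the bright genes had 2.94% above 0 and 0.915% below. The members' shares in the direction most genes took thus lay below those of all genes and above those of bright genes. Cox8b, Cox6a2 and Uqcrq, the members in that direction, had mean levels under 2. With quantile normalization 0 were higher and 4 lower in that comparison (4.6% lower), against 9.07 and 4.38% of all genes. For low Cu/30% sucrose against the control diet 0 members were called (limma; 1 had an unadjusted p under 0.05), against 1.72 and 0.0376% of all genes. For copper at 30% sucrose, sucrose at low copper and the mean sucrose difference, 0 members and 0 genes were called, and 9, 1 and 1 of 87 members had an unadjusted p under 0.05.

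Where nothing was called, members with the smallest p are given by their values. For copper at 30% sucrose they were Ndufs1 (0.27), Cox6c-ps1 (0.86), Cox5a (0.24), Sdha (0.25) and Ndufaf1 (0.21), with adjusted p from 0.472 to 0.482. For sucrose at low copper they were Ndufs1 (0.22), Cox6b2 (-0.46), Uqcrfs1 (0.22), the acyl carrier protein Ndufab1 (0.22) and Sdhc (0.22). For the mean sucrose difference they were Ndufv1 (-0.14), Cox4nb (-0.14, now Emc8 of the ER membrane complex), Cox6c-ps1 (-0.40) and Cox8b (0.25). For low Cu/30% sucrose against the control diet they were Cox8b (0.57), Cox4nb (-0.20), Cox6a2 (0.50) and Atp5s (-0.19).

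Of 18 members with several kept probes, 10 had all probes on the same side of 0 in the mean copper difference and 13 in the interaction. Atp5d was the widest case, with a difference of 1.63 between its probes in the interaction. Its dimmer probe was well above background on 13 of 24 arrays. For the 14 probes printed in 10 spots, the SD between spots of an array had medians over the arrays of 0.0293 to 0.108, and on a single array it reached 0.753 (Ndufb3).

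Genes that build and feed the chain were read from fixed lists. Of 12 complex IV assembly genes kept, 1 was called in the interaction (Cox16, 0.45, adjusted p = 0.0375) and 1 for sucrose at adequate copper (Cox11, a copper chaperone for the oxidase, which fell by 0.34, adjusted p = 0.0478). Of 16 assembly genes of the other complexes, Atpaf1 (0.86) and Bcs1l (0.65) were called in the interaction. The list had a median of 0.24 with 15 above 0. Cox11, Atpaf1 and Bcs1l were dim, with mean levels under -2 in the groups compared. Their sizes depended on the scaling, and quantile normalization gave -0.66, 1.41 and 0.98. Of 18 genes of cytochrome c and coenzyme Q synthesis, Coq2, Coq9 and Cyc1 fell under 30% sucrose at adequate copper by 0.36, 0.26 and 0.31, and Coq2 passed in the interaction (0.50). Of 17 genes of the tricarboxylic acid cycle and its entry, Cs, Pc and Pdhb were called in the interaction (0.34, 0.53 and 0.86) and fell under 30% sucrose at adequate copper (0.25, 0.43 and 0.54). The list's median in the interaction was 0.25, with 15 of 17 above 0. Among 18 regulators of mitochondrial biogenesis, 2 rose and 1 fell under 30% sucrose at adequate copper. Sirt3, a mitochondrial deacetylase, fell by 0.65, while Nrip1, a repressor of oxidative genes, rose by 0.73 and Ppard, a nuclear receptor for fatty acids, by 0.92 (adjusted p = 0.043, limma). With slide as a block Ppard turned to -0.54, and with quantile normalization it was 0.79 and missed the threshold (adjusted p = 0.0779, limma). The interactions of Sirt3 and Nrip1 were called, at 0.70 and -1.02. Under quantile normalization Coq9, Cyc1, both calls of Cs, and the interactions of Pc and Sirt3 also missed the threshold. Their adjusted p ran from 0.0515 to 0.114 (limma). The other calls of genes named to this point passed there. Of 69 mitochondrial ribosomal protein genes, 6 were called above 0 and 1 below in the interaction, with a median of 0.14. Over all genes 1.94% were called above 0 and 18.9% below in the interaction. For 30% sucrose at adequate copper 18.4% were higher and 2.48% lower. With slide as a block the interaction median was -0.0050 for the ribosomal protein genes and -0.02 for cytochrome c and coenzyme Q. It was 0.11 for the tricarboxylic acid cycle, 0.21 for assembly of the other complexes and 0.17 for the regulators. None of these lists had a call in the mean copper difference, where 0% of all genes were called, and their medians there lay between 0.01 and 0.05.

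RNA from the mitochondrial genome, which encodes the copper-holding subunits, was read by 13 probes. None was called in the 8 comparisons. Their median was -0.0010 in the mean copper difference and -0.27 in the interaction, where 1 of 13 lay above 0. In the interaction 56 of 63 nuclear-encoded subunits of complexes I, II, III and V lay above 0. All genes had a median of -0.10 there, with 7823 of 18641 above 0. The slide block gave medians of -0.61 for the mitochondrial genome and 0.0088 for those subunits (34 of 63 above 0), beside -0.13 for all genes. For 30% sucrose at adequate copper the median of the mitochondrial genome probes was 0.14 with 11 of 13 above 0, beside 0.07 for all genes.

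Markers of blood and other non-hepatocyte cells had calls in the comparisons in which members were called. Of 5 neutrophil markers, 4 were lower in the interaction, 2 higher under low copper at 10% sucrose and 4 higher under 30% sucrose at adequate copper. Of 6 lymphocyte and natural killer markers the counts were 4, 4 and 4 in the same directions. Of 6 macrophage markers they were 1, 1 and 1, of 6 stellate cell markers 2, 1 and 2, and of 5 red blood cell markers 0, 0 and 2. Of 5 bile duct markers 0 were called in each. Of all genes, 18.9, 18 and 18.4% were called in these directions. With slide as a block, the lymphocyte and natural killer median for 30% sucrose at adequate copper turned from 0.897 to -0.336. Macrophage and stellate medians turned from 0.386 and 0.175 to -0.234 and -0.236. Neutrophil, red blood cell and bile duct medians stayed above 0. Ncr1, Sox9, Cd79a, Cd79b and Cxcr2 were well above background on 6, 6, 10, 13 and 15 of 24 arrays. The median deviation of the neutrophil markers ranged from -0.93 to 0.18 on low Cu/30% sucrose, 0.12 to 2.16 on adequate Cu/30% sucrose, -0.85 to 1.77 on low Cu/10% sucrose and -1.45 to -0.82 on the control diet. Of 8 hepatocyte markers 0 were called in these comparisons. The part of these cell types in the members' differences was not tested.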

How the data were processed

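Liver RNA of 24 rats was measured on one-colour arrays. Per the file headers, Agilent Feature Extraction 10.7.3.1 made the deposited processed signal, an intensity that was background-subtracted and detrended within the array and not scaled between arrays, and probe positions refer to rn4. The authors' series table is a quantile-normalized score. How its scale was set is not given in the sources used here, and for one alternative it was multiplied by 662, raised by 80.4 and floored at 5. Deposited spot marks (unit other) served as filters.

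Of 62976 spots, 4259 controls and 0.652% marked as outliers were left out. Log2 of the processed intensity was taken relative to the 75th percentile of its array, with the mean over the spots of a probe. Probes well above background on at least 6 arrays (21179) were kept, and the brightest stood for a gene name (18641 genes). Of 89 member names, 78 were matched to RefSeq by accession and 11 by name.

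The fit used limma 3.58.1 (R 4.3.3, statmod 1.5.0) with 1 mean for each diet and moderated two-sided tests, adjusted by Benjamini-Hochberg over all genes in each of 8 comparisons. Medians over complexes and lists have no test. The fit was tested on simulated data. Members, lists and tests were chosen with earlier results of these data known, as were the 2 rats left out together, and the bright and dim gene sets were set after seeing the data. All kept complex IV subunits and 18 core members were named for the mean copper difference, with all called members elsewhere and the 5 smallest p where few were called (73 pairs of 40 genes). One of these members is not reported here. Nothing in the labels says more of separate housing or dissection of the rats. The number of arrays limits the precision. Alternatives were normexp (offset 50), quantile normalization, other percentiles, the authors' table, other filters, probe rules, slide and replicate blocks, an intensity trend, array weights and left-out rats. Leaving out slide 2 and quantile normalization with the slide block were added after seeing the data.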

Additional observations from a re-analysis of the deposited data

Results flagged for a closer look

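In 9 of 160 groups of 6 rats tested, 1 rat stood apart from the other 5 by more than Dixon's critical value. Chance flags about 1 in 20 groups. For Cox4i2 it was rat 3 on the control diet at -0.070, with the nearest other rat at 0.54. For Cox5a it was rat 5 on adequate Cu/30% sucrose at 4.46, the rat with the lowest subunit median. Rat 1 of the same diet stood apart upward for Cox6b2 at 4.59 and for Cox8a at 6.94. On low Cu/30% sucrose, rat 4 stood apart downward for Cox6c at 5.57 and for Cox6c-ps1 at -2.55, rat 2 for Ndufaf1 at -1.54, and rat 6 upward for Uqcrc2 at 3.58. For Cox6c-ps1 rat 2 on low Cu/10% sucrose also stood apart at -3.84.

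The interaction term was called in 9 of 87 members, 6.9% above 0 and 3.45% below. Of all genes tested, 1.94% were called above 0 and 18.9% below. The interaction was above 0 for Cox6c-ps1 (1.60), Sdhc (0.51), Atp5s (0.46), Cox5a (0.42), Ndufa4 (0.41) and Atp5j (0.41). It was below 0 for Cox6a2 (-1.06), Cox8b (-1.06) and Uqcrq (-0.77). With slide as a block 0 of these 9 passed the threshold (limma), at differences of 0.44, 0.24, 0.59, 0.30, 0.31, 0.24, -0.30, -0.69 and -0.34 in the order given.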

How the results depend on the processing

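The calls of members depended on slide, on array weights and on single rats. In the interaction (9 members called) 0 were called with slide as a fixed block, as a random block, without slide 2, and with quantile normalization and the slide block. For low copper at 10% sucrose (4 called) the counts were 0, 1, 0 and 0 under those settings, and for 30% sucrose at adequate copper (6 called) they were 0 under each. Without both rats with high neutrophil markers the counts were 1, 2 and 3. The interaction had 14 calls with normexp and 4 with quantile normalization. Low copper at 10% sucrose had 7 calls with array weights and 2 with only both diets fitted, and sucrose at adequate copper had 10 with an intensity trend and 20 with array weights. Low Cu/30% sucrose against the control diet (0 called) had 1 with array weights, Cox8b at 0.70 (adjusted p = 0.0187). With 1 rat left out the counts ranged from 3 (without rat 5 on adequate Cu/30% sucrose) to 15 (without rat 1 of that diet) in the interaction, from 2 (without rat 2 on low Cu/10% sucrose) to 5 for low copper at 10% sucrose, from 2 (without rat 5 on adequate Cu/30% sucrose) to 9 for sucrose at adequate copper, and from 0 to 1 (without rat 6 on low Cu/30% sucrose) for both changes. These are counts of members only. The share of all genes called was not counted beside them under normexp, the intensity trend, array weights or left-out rats. For sucrose at adequate copper the main fit called 18.4% of all genes higher and 2.48% lower. The cause was not tested.

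Complex IV minus the other complexes in the interaction was -0.22, and -0.31 with the slide block or without slide 2, which are the same estimate. It was -0.13 with quantile normalization and the slide block, and -0.030 without the tissue forms. Without the tissue forms it was 0.035 for low copper at 10% sucrose (0.14 with them) and -0.012 for sucrose at low copper (-0.10 with them), and without slide 2 it was 0.22 for sucrose at adequate copper (0.11 with it). Among single called members Cox6a2 alone reversed. For low copper at 10% sucrose it stood at -0.044 with the slide block and without slide 2, which are the same estimate. It stood at -0.18 with quantile normalization and the slide block. For sucrose at adequate copper it stood at -0.55 with the slide block and -0.56 with quantile normalization and the slide block, and in the interaction at 0.0072 with the last.

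Rats of the same number did not deviate together between diets (12 of 36 correlations were over 0.1, and they ran from -0.29 to 0.36). With the replicate block 7, 3 and 5 members were called in the interaction, for low copper at 10% sucrose and for sucrose at adequate copper.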
